A study of Daphnia magna with 48 samples.

Results

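Whole-body RNA of *Daphnia magna* reared in chronic mild intermittent hypoxia (CMIH) was compared with that of sisters reared in normoxia, in the clones from intermittent habitats and in the animals that had not been exposed to acute severe hypoxia (ASH). Members were chosen by their labels alone: all samples of clones FI and IL marked as controls, 12 of the 48 samples of the series. Of these, 6 came from CMIH (3 FI, 3 IL) and 6 from normoxia (3 FI, 3 IL). Clone was kept as a block, and each clone was then examined alone, 3 samples against 3.

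The CMIH group was kept at an oxygen concentration brought to 4 mg/L 2 times a day, and the normoxia group at 8 mg/L; both were reared at 20 °C and sampled at 25 days. Each sample was a whole-body homogenate of 2 females. FI (FI-FSP1-16-2) and IL (IL-M1-8) are 1 clone each, so 1 genotype stands for each pond, and all animals within a clone share that genotype. The other samples used below were 12 controls of clones GB (GB-EL75-69) and HU (HU-K-6) from permanent habitats, reared and sampled in the same groups, and 12 further FI and IL pools that had spent 12 h at 1 mg/L oxygen (ASH). The study's methods describe unexposed animals frozen straight from the tank and others held for 12 h in flasks, unfed, at their rearing oxygen level; they name the flask animals as the RNA-seq controls, but the labels do not say which kind each sample was. In either case rearing history and the oxygen present at sampling cannot be told apart, and if tank animals were used, neither can ASH and the flask without food.

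In animals, low oxygen stabilises the hypoxia-inducible factor, a transcription factor that switches on genes for oxygen transport and for energy production without oxygen. *Daphnia* carry extracellular hemoglobin in the hemolymph, and pale animals are known to turn red when kept in oxygen-poor water because they make more of it. Cytoglobins are globins of the cell interior, known in vertebrates to bind oxygen and to take part in nitric oxide and oxidant chemistry. Only 4 of the transcripts listed carried a globin name that could be taken from the study. They were 2 cytoglobin precursors (35F4.44 and 0F43.50, named here by contig and gene number) and 2 hemoglobin precursors (11F0.55 and 3F39.53). The study's own reference list of hemoglobins and cytoglobins was longer, so other globins may be among the transcripts without a name. All other transcripts are given by identifier only, because the identifiers carry no gene names and none of the 6050 matched the RefSeq gene table. For the same reason the labelled tissue could not be checked against marker genes, and fewer cells of a type cannot be told apart from less RNA per cell.

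Depth was uneven between the clones. Counted over the 6050 listed transcripts, the FI libraries held 20474 to 100373 reads in CMIH and 16894 to 47269 in normoxia. The IL libraries held 78407 to 381683 in CMIH and 235931 to 408355 in normoxia. A count of 3 reads corresponded to 29.9 to 178 CPM (reads scaled by library total alone) in FI and to 7.35 to 38.3 CPM in IL, and the median transcript had 89 reads over all 12 libraries. Within FI, log2 CPM across the 4046 transcripts with at least 60 reads correlated with a median r of 0.487 between CMIH and normoxia libraries and 0.489 between libraries of the same condition. Within IL these medians were 0.736 and 0.681. Libraries of the same condition were thus about as alike as libraries of different conditions in FI, and less alike in IL. These correlations are across transcripts, which are not independent replicates.

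The cytoglobin precursor 35F4.44 was the transcript with the lowest p in the comparison of CMIH with normoxia. Its FI level was 215, 119 and 115 RPKM (reads scaled by transcript length and library total) in CMIH, against 51.6, 69.6 and 82.5 RPKM in normoxia. The same transcript stood in IL at 187, 146 and 199 RPKM in CMIH, against 53.8, 54.7 and 55.8 RPKM in normoxia. In both clones every CMIH pool was above every normoxia pool. These levels rested on 27, 7 and 33 reads in FI CMIH pools and 7, 6 and 4 reads in FI normoxia pools, and on 42, 115 and 218 reads in IL CMIH pools and 63, 37 and 41 reads in IL normoxia pools.

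Over both clones the mean of 35F4.44 was 163 ± 42.7 RPKM in CMIH and 61.3 ± 12.2 RPKM in normoxia (SD, n = 6 each). This was a log2 fold change of 1.54 ± 0.25 (SE, used in this way throughout), a 2.9-fold difference, with an edgeR adjusted p of 0.107 over 6050 transcripts. In DESeq2's likelihood ratio test its log2 fold change was 1.57 and its adjusted p 4.51e-08. The 2 tools thus put it on different sides of the threshold of 0.05. An exact two-sided permutation test gave a difference of 1.39 in mean log2(CPM + 1) and p = 0.005, the smallest p this design allows. The test took all 400 relabellings of rearing condition within clone. Any transcript separated in the same direction in both clones reaches this limit, and 13 were so with CMIH above and 13 with CMIH below. Because 35F4.44 had the lowest edgeR p of 6050 transcripts in these same pools, the permutation test adds no independent evidence. Adjusted p-values here treat the pools as replicates, whereas CMIH was applied to whole tanks.

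Each clone alone gave a similar size. On the log2 scale 35F4.44 differed by 1.35 ± 0.62 in FI (edgeR adjusted p = 0.883) and by 1.66 ± 0.22 in IL (edgeR adjusted p = 0.652). With 3 pools against 3, the exact permutation test of 1 clone reaches no lower than p = 0.1, and both clones were at that limit. The difference between the clones, FI minus IL, was -0.29 ± 0.52 (edgeR adjusted p = 1.00). FI had 67 reads of the transcript in its CMIH pools and 17 in its normoxia pools, and IL had 375 in its CMIH pools and 141 in its normoxia pools.

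**Figure D1:**
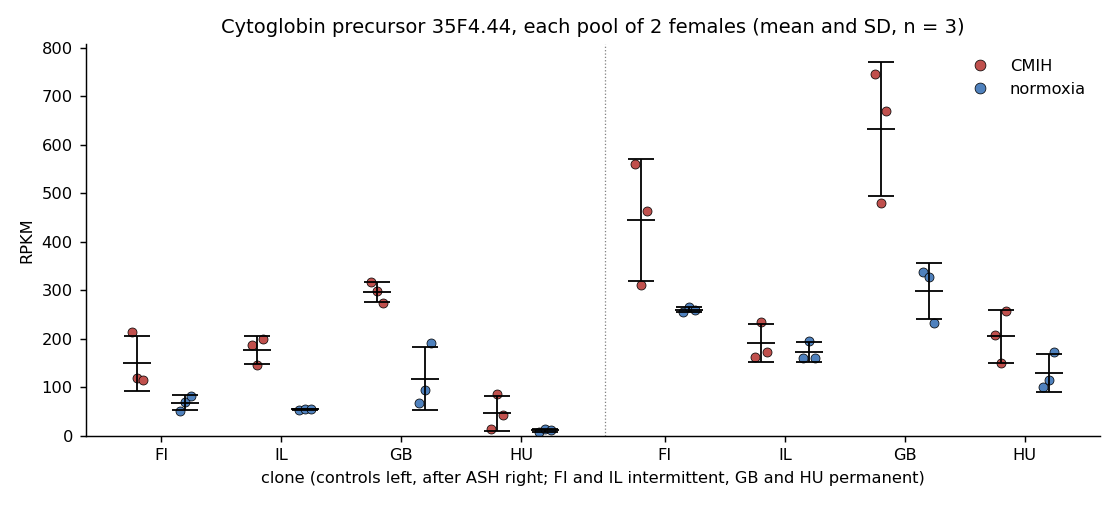
RPKM of the cytoglobin precursor 35F4.44 in all 48 pools, by clone, with CMIH left of normoxia in each pair and controls left of ASH pools. Points are pools and bars mean and SD of 3; in FI and IL controls the CMIH points (115 to 215 RPKM) lie above all normoxia points (51.6 to 82.5 RPKM).

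Samples that had no part in this comparison gave the following values for 35F4.44. In GB controls it stood at 297 ± 21.4 RPKM in CMIH and 118 ± 64.9 RPKM in normoxia, and in HU controls at 47.0 ± 36.1 RPKM in CMIH and 11.2 ± 2.99 RPKM in normoxia (SD, n = 3 each). Over GB and HU controls together the log2 fold change was 1.66 ± 0.42 (edgeR adjusted p = 0.844). The test of CMIH by habitat, FI and IL minus GB and HU, gave -0.15 ± 0.45 (edgeR adjusted p = 1), with 4 clones standing for 2 habitat types. After ASH the FI pools held 446 ± 126 RPKM when reared in CMIH and 260 ± 5.29 RPKM when reared in normoxia, and the IL pools 191 ± 39.2 RPKM when reared in CMIH and 172 ± 20.5 RPKM when reared in normoxia (SD, n = 3 each). After ASH, CMIH over normoxia came to 0.41 ± 0.26 on the log2 scale (edgeR adjusted p = 0.879).

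The other cytoglobin precursor, 0F43.50, was close to the limit of detection. It had no read in the 3 FI CMIH pools and 0, 1 and 0 reads in FI normoxia pools, and 1, 0 and 7 reads in IL CMIH pools against 4, 1 and 1 in IL normoxia pools. Its sign was not fixed by these 15 reads, since edgeR gave a log2 fold change of 0.21 ± 0.86 and DESeq2 one of -0.089. In GB and HU controls, where 17 reads in CMIH stood against 3 in normoxia, it was 2.24 ± 0.73 (edgeR adjusted p = 1).

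Of the hemoglobin precursors, 3F39.53 was the more abundant in these controls. Its FI level was 266, 190 and 84.1 RPKM in CMIH, against 187, 227 and 103 RPKM in normoxia, with wide overlap. In IL it was 97.4, 127 and 104 RPKM in CMIH, against 203, 0.568 and 103 RPKM in normoxia. Normoxia pool 8 of IL held 1 read of it in 235931, while the other normoxia pools held 618 and 197 reads. Over both clones the log2 fold change was 0.07 ± 0.65 (edgeR adjusted p = 1.00) and was -0.19 without that pool; the exact permutation test gave p = 0.685.

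Hemoglobin precursor 11F0.55 had 4 reads in all 12 controls, 2 of them in FI CMIH pool 12 and 2 in IL normoxia pool 9, so no fold change is given. Zero reads in the other 10 libraries allow a level of up to 7.35 to 178 CPM, depending on the library; these limits cover counting error only. After ASH both hemoglobin precursors were abundant in the same clones. The 3F39.53 level was then 1379 ± 172 RPKM in FI reared in CMIH and 2023 ± 223 RPKM in FI reared in normoxia, and 749 ± 218 RPKM in IL reared in CMIH and 1865 ± 233 RPKM in IL reared in normoxia (SD, n = 3 each). CMIH over normoxia after ASH was thus -0.96 ± 0.23 for 3F39.53 on the log2 scale (edgeR adjusted p = 0.529), with a DESeq2 adjusted p of 0.0336. The same contrast for 11F0.55 was -1.51 ± 0.52 (edgeR adjusted p = 0.696). Among the 4 globin precursors, then, only 35F4.44 had every CMIH control above every normoxia control in both FI and IL, with an edgeR adjusted p of 0.107. For 3F39.53 the pools overlapped. The reads of 11F0.55 (4) and 0F43.50 (15) were too few to say whether either differed.

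**Figure D2:**
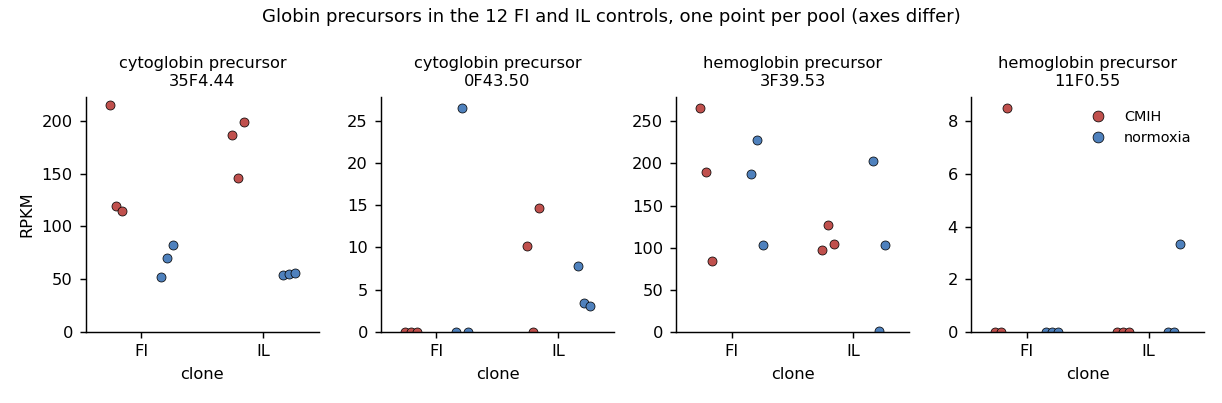
RPKM of the 4 globin precursors in the 12 FI and IL controls, with CMIH left of normoxia and a separate axis for each transcript. The 2 conditions separate in both clones for 35F4.44 and overlap for 0F43.50, 3F39.53 and 11F0.55.

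Across all 6050 transcripts no change passed an adjusted p of 0.05 in the edgeR quasi-likelihood test of CMIH in FI and IL controls (0 called, 0%). At an unadjusted p under 0.05 the test had 142 transcripts (2.35% of those tested), 90 higher and 52 lower in CMIH. At p under 0.01 it had 27, of which 20 were higher and 7 lower. DESeq2 called 1 of 6023 transcripts (0.0166%), the cytoglobin precursor 35F4.44, and had 111 at an unadjusted p under 0.05. The pools of CMIH and normoxia overlapped in neither clone, CMIH above, for 13 transcripts (0.215%), and CMIH below for another 13 (0.215%). The median log2 fold change of all transcripts was 0.04. On contig 0, 4 of 481 transcripts (0.832%) were higher at p under 0.01; no other contig held 3 in one direction, and 2 of the 4 (0F9.40 and 0F9.54) had nearly the same reads.

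The transcripts with the lowest p are described next, 10 higher and 10 lower in CMIH, each with at least 60 reads in the 12 libraries and the same direction in FI and in IL. They were picked from the tail of this same test, and apart from 35F4.44 in DESeq2 none passed an adjusted p of 0.05 with either tool at full depth. Among the 10 higher ones, log2 fold changes ran from 1.09 to 7.52 with a median of 2.68. Their edgeR adjusted p was 0.107 for 35F4.44, 0.431 for 23F15.141, 0.716 for 6F28.130 and 1.00 for the other 7. Alone, 10 of the 10 had an edgeR p under 0.05 in IL and 5 in FI. Among all 6050 transcripts these counts were 139 in IL and 291 in FI. The 10 were chosen in the same samples, so their low p in each clone follows largely from that choice. The 10 are of 2 kinds: transcripts raised by similar amounts in most pools, and transcripts with large counts in 1 or 2 pools.

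To the first kind belong 35F4.44, 23F15.141, 14F25.57, 8F23.39 and 0F66.48. Transcript 23F15.141 had the second-lowest p. It stood in IL at 19.2, 13.1 and 17.4 RPKM in CMIH, against 2.95, 3.83 and 4.71 RPKM in normoxia, without overlap. In FI the same transcript was at 13.8, 14.7 and 24.0 RPKM in CMIH, against 6.37, 10.0 and 17.8 RPKM in normoxia, where the normoxia pools held 1 read each. This gave a log2 fold change of 1.80 ± 0.36.

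Transcript 14F25.57 was at 188, 181 and 193 RPKM in IL CMIH pools, against 24.8, 29.1 and 92.0 RPKM in IL normoxia pools. FI had 262, 160 and 143 RPKM of it in CMIH, against 55.4, 43.6 and 252 RPKM in normoxia. One FI normoxia pool, number 9, thus lay among the CMIH values. Over both clones 14F25.57 differed by 1.59 ± 0.40 on the log2 scale.

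For 8F23.39 every CMIH pool was above every normoxia pool in both clones. In FI this rested on 5, 2 and 14 reads in CMIH pools and 3, 1 and 1 in normoxia pools. The values in FI were 31.5, 26.9 and 38.4 RPKM in CMIH, against 17.5, 9.18 and 16.3 RPKM in normoxia, and those in IL 21.1, 16.0 and 13.0 RPKM in CMIH, against 6.75, 7.01 and 10.8 RPKM in normoxia. Its log2 fold change, 1.09 ± 0.31, was the smallest of the 10. Transcript 0F66.48 had 36.2 to 208 RPKM in the 6 CMIH pools (median 87.2), against 0 to 84.0 RPKM in the 6 normoxia pools (median 25.5). The conditions overlapped in both clones, and the log2 fold change was 1.50 ± 0.46. Its FI values rested on 3, 3 and 3 reads in CMIH pools and 0, 0 and 1 in normoxia pools.

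To the second kind belong 5F37.23, 5F37.100, 6F28.130, 107F0.100 and 0F9.40. Transcript 5F37.23, the most abundant of them, had 53, 8 and 2 reads in FI CMIH pools and none in FI normoxia pools, and 1, 36 and 233 reads in IL CMIH pools against 1, 9 and 15 in IL normoxia pools. The fitted log2 fold change was 3.75 ± 0.99. Its neighbour 5F37.100 followed it across the 12 libraries (r = 0.949 of log2 CPM), so the pair is not counted here as separate observations. For 5F37.100 itself the reads were 10, 3 and 1 in FI CMIH pools against none in FI normoxia pools, and 1, 2 and 53 in IL CMIH pools against 0, 3 and 2 in IL normoxia pools.

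The rest were carried by 1 or 2 pools. In raw reads, IL CMIH pool 12 held 166 of the 175 reads of 6F28.130, 137 of the 170 reads of 107F0.100 and 39 of the 60 reads of 0F9.40. Scaled by library total, that pool held 77.9% of the summed CPM of 6F28.130. The largest share lay instead in the shallower FI CMIH pool 10 for 107F0.100 (66.8%) and in FI CMIH pool 11 for 0F9.40 (90.2%). The remaining reads of 107F0.100 were 32 in FI CMIH pool 10 and 1 in IL CMIH pool 11, and none was in a normoxia pool. Set against 3 reads over the 6 normoxia pools, 107F0.100 was at least 62.6-fold higher in the pooled CMIH reads. This bound covers counting error only, not the spread between pools. Transcript 0F9.40 had 20 reads in FI CMIH pool 11 and 1 in IL normoxia pool 9 besides. Without IL CMIH pool 12 the log2 fold changes fell to 2.06 for 6F28.130, against 5.70 with it, and to 2.04 for 5F37.100, against 3.56 with it.

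The 10 lower transcripts had log2 fold changes of -3.47 to -0.82, with a median of -1.24, and the edgeR adjusted p was 1.00 for each. Alone, 5 of them had an edgeR p under 0.05 in FI and 4 in IL, against 291 and 139 of all 6050. These counts too follow largely from the choice in the same samples. In 3 of them the conditions overlapped in neither clone. The first, 63F2.111, stood at 0, 0 and 8.14 RPKM in FI CMIH pools, against 34.6, 54.4 and 48.4 RPKM in FI normoxia pools, and at 20.8, 20.8 and 8.56 RPKM in IL CMIH pools, against 38.0, 48.5 and 41.5 RPKM in IL normoxia pools. The log2 fold change came to -1.66 ± 0.42. All 6 normoxia pools lay between 34.6 and 54.4 RPKM, while no CMIH pool exceeded 20.8 RPKM.

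Transcript 62F0.58 was at 0 to 7.06 RPKM in the 6 CMIH pools (median 5.42), against 7.47 to 26.6 RPKM in the 6 normoxia pools (median 12.1). It differed by -1.16 ± 0.36 on the log2 scale. Transcript 248F0.22 was at 0 to 31.9 RPKM in CMIH (median 14.0), against 24.0 to 46.0 RPKM in normoxia (median 40.1), the ranges crossing only between clones. The difference on the log2 scale was -1.21 ± 0.41. In FI these 3 rested on 1 to 4 reads in the CMIH pools together and 5 to 8 in the normoxia pools together, so the separation in FI is one of very low counts.

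Better covered than those were 0F6.148 (238 reads over the 12 libraries) and 4F22.31 (1031 reads), mostly through IL. In FI, 0F6.148 had 22 reads in CMIH pools together and 36 in normoxia pools together, and 4F22.31 had 12 and 37. Transcript 0F6.148 was at 77.9, 71.4 and 58.2 RPKM in FI CMIH pools, against 175, 195 and 202 RPKM in FI normoxia pools. In IL its ranges overlapped, with 28.3 to 68.3 RPKM in CMIH and 45.3 to 84.6 RPKM in normoxia. Transcript 4F22.31 was at 580, 572 and 558 RPKM in IL CMIH pools, against 1294, 1252 and 605 RPKM in IL normoxia pools. FI had 32.4, 555 and 42.5 RPKM of 4F22.31 in CMIH, against 361, 993 and 336 RPKM in normoxia. Over both clones the log2 fold changes were -0.82 ± 0.29 for 0F6.148 and -1.28 ± 0.50 for 4F22.31.

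Of the remaining 5, 1F21.43 was the most abundant and the most uneven. It ranged from 48.2 to 661 RPKM in the 6 CMIH pools (median 193), against 37.8 to 3124 RPKM in the 6 normoxia pools (median 740). In both clones normoxia pool 8 was the highest of all, at 3124 RPKM in FI and 2853 RPKM in IL. The log2 fold change of 1F21.43 was -2.28 ± 0.82, and -1.45 without IL normoxia pool 8. The same pool held 57 of the 70 reads of 16F7.43, whose log2 fold change was -3.47, and -0.87 without it. Transcripts 16F11.56, 14F21.47 and 15F12.64 had log2 fold changes of -1.38, -1.17 and -1.01.

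**Figure D3:**
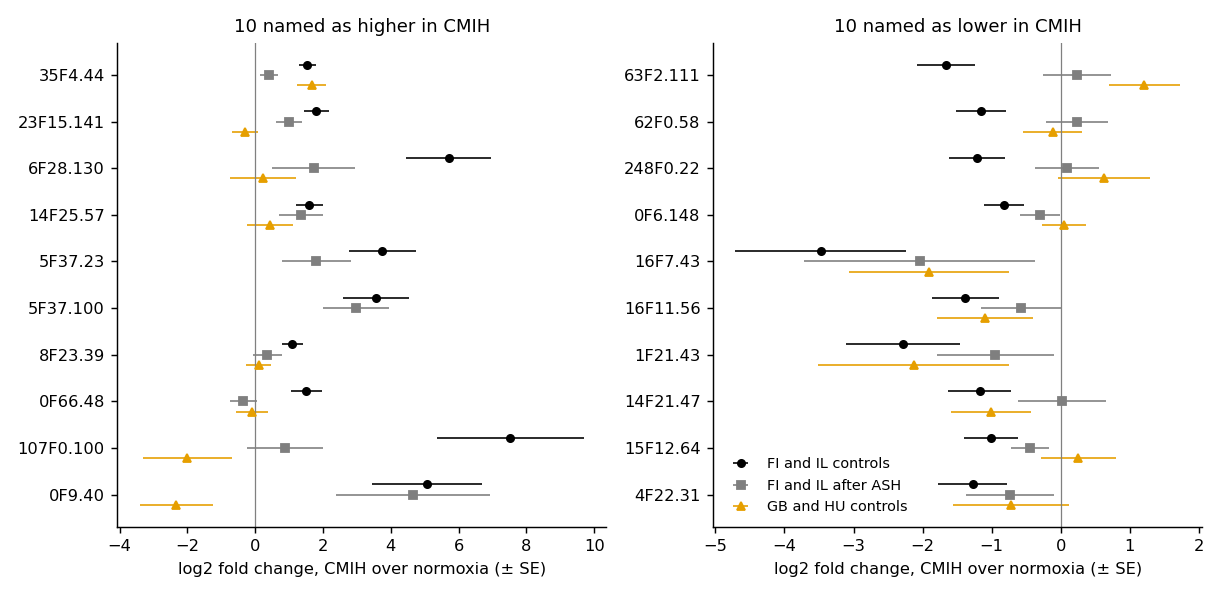
Log2 fold change of CMIH over normoxia (points, with standard errors) of the 10 higher and 10 lower transcripts in FI and IL controls, in FI and IL after ASH and in GB and HU controls. Points in FI and IL controls lie off zero because they were chosen there; in GB and HU controls 35F4.44 lies at 1.66, and 5F37.23 and 5F37.100 have no point there because they had no reads.

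The same 20 transcripts were read in samples that played no part in choosing them. In GB and HU controls, where 2.89% of all transcripts had p under 0.05, 4 of the 10 higher transcripts had the same direction, 4 had the opposite one and 2 had no reads; 1 of the first 4, 35F4.44, had p under 0.05. Transcripts 5F37.23 and 5F37.100 had no read in any of the 12 GB and HU controls, which allows up to 3.45 CPM in the pooled CMIH libraries and 3.71 CPM in the pooled normoxia libraries. Transcript 0F9.40 pointed the other way there, with 1 read in CMIH and 7 in normoxia (log2 fold change -2.33 ± 1.08, edgeR adjusted p = 1). Of the 10 lower transcripts 6 had the same direction in GB and HU controls, none of them with p under 0.05 in edgeR. Transcript 63F2.111 pointed the other way, at 1.21 ± 0.51 on the log2 scale (edgeR adjusted p = 1). The unadjusted p was under 0.05 for 0F9.40 and 63F2.111 there.

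The test of CMIH by habitat called 0 transcripts over the 24 controls in edgeR, with 143 at an unadjusted p under 0.05, and 0 in DESeq2, with 123. Nothing among the 20 is therefore called particular to FI and IL. The habitat differences with the lowest p among them were those of 63F2.111, -2.87 ± 0.65, and 23F15.141, 2.07 ± 0.52, both with an edgeR adjusted p of 1.

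Pools of the same clones after ASH, other females from the same tanks, gave a further reading of CMIH against normoxia. There 6.36% of all transcripts had p under 0.05, and 9 of the 10 higher transcripts kept their direction, with a median log2 fold change of 1.18. Of the 9, 2 had p under 0.05, namely 23F15.141 at 1.00 ± 0.38 (edgeR adjusted p = 0.747) and 5F37.100 at 2.97 ± 0.97 (edgeR adjusted p = 0.691). For 14F25.57 the difference there was 1.35 ± 0.64 on the log2 scale (edgeR adjusted p = 0.78), from 871 reads in CMIH and 140 in normoxia. For 5F37.23 the reads after ASH were 217 in CMIH and 23 in normoxia (log2 fold change 1.80 ± 1.02, edgeR adjusted p = 0.844). For 0F9.40 they were 30 in CMIH, from 2 pools, and 0 in normoxia (edgeR adjusted p = 0.812). The CMIH libraries after ASH held 1307796 reads together and the normoxia libraries 730303, so raw reads overstate the difference. Among the 9, 6F28.130 rested on 2 reads in CMIH against 0, and 107F0.100 on 1 against 0. Of the 10 lower transcripts 6 kept their direction after ASH, none with p under 0.05 in edgeR, and the median was -0.38.

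Likeness to 35F4.44 was measured as Pearson's r of log2(CPM + 1) over the 12 controls, with each clone centred on its own mean, among transcripts with at least 60 reads. The 5 most alike were 23F15.141 (r = 0.85), 14F25.57 (r = 0.83), 2F33.55 (r = 0.79), 8F23.39 (r = 0.76) and 0F23.84 (r = 0.74). Among these, 23F15.141, 14F25.57 and 8F23.39 are among the 10 higher ones described above. The other two had log2 fold changes of 0.82 ± 0.33 for 2F33.55 and 0.52 ± 0.21 for 0F23.84. These points share library, depth and the rearing contrast itself, and the values are a description of the 12 pools.

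In FI alone, edgeR called 23 of 6050 transcripts (0.38%) at an adjusted p under 0.05, 17 higher and 6 lower in CMIH; DESeq2 called 0, with 67 at an unadjusted p under 0.05 and 291 in edgeR. The lowest DESeq2 adjusted p among the 23 was 0.645, and 2 of them received none there. Over the 23 calls, leaving out FI CMIH pool 11 left 13, normoxia pool 7 left 11 and normoxia pool 8 left 7. With the robust fit, added after the data had been seen, the count was 7.

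The 17 higher transcripts were mostly the transcripts of single pools. In all 17 more than 50% of the CPM summed over the 3 CMIH pools came from 1 pool, and in 13 more than 80%. That pool was number 10 for 6 transcripts, number 11 for 6 and number 12 for 5. The lowest p belonged to 8F17.30, with 146 reads in CMIH pool 10, none in CMIH pools 11 and 12 and none in any normoxia pool. Against 3 reads over the normoxia pools this was a bound of 27.8-fold in pooled reads, which covers counting error only and not the spread between pools. With a sample left out, the FI log2 fold change of 8F17.30 fell to 0. Its neighbour 8F17.24 had 140, 1 and 2 reads in CMIH, against 2, 2 and 0 reads in normoxia (log2 fold change 4.80 ± 0.72, edgeR adjusted p = 1.08e-07). In IL both had few reads, and their log2 fold changes were -1.16 and -0.80.

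Transcript 5F37.23, described above, was at least 12.0-fold higher in the pooled FI reads, with all 3 CMIH pools above the empty normoxia pools. Transcript 13F8.89 had 45, 1 and 1 reads in CMIH, against 0 in all normoxia pools, at least 8.96-fold higher in pooled reads. For 107F0.100, with 32, 0 and 0 reads in CMIH, the bound was 6.10-fold, and its FI log2 fold change fell to 0 with a sample left out. These bounds too cover counting error only, not the spread between pools. In 3 of the 17 transcripts every CMIH pool exceeded every normoxia pool. The 17 were called in these same pools, and the share of all transcripts without overlap in FI alone was not counted. The count is therefore a description only. Fitted log2 fold changes of the 17 had a median of 5.89, and 2.47 with the 10 transcripts that had no normoxia read set to their bound.

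Of the 6 lower transcripts of FI, 4 did not overlap between conditions, 2 of them the neighbours 66F1.59 and 66F1.69. These 6 too were called in these same pools, and the share of all transcripts without overlap in FI was not counted. This count is likewise a description only. In 5 of the 6 more than 50% of the CPM summed over the 3 normoxia pools came from 1 pool, and in 0 more than 80%. Transcript 66F1.59 had 14, 23 and 11 reads in CMIH, against 95, 135 and 29 reads in normoxia, which are 30.7, 108 and 10.5 RPKM against 193, 432 and 165 RPKM. On the log2 scale this was -2.57 ± 0.52 (edgeR adjusted p = 0.000886). Its neighbour 66F1.69 followed it over the 12 libraries (r = 0.992) and differed by -3.02 ± 0.66 (edgeR adjusted p = 0.00243). For 1F21.43 the reads were 7, 14 and 5 in CMIH, against 47, 97 and 7 in normoxia (log2 fold change -2.67 ± 0.57, edgeR adjusted p = 0.00209).

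Smaller counts stood behind 13F8.12, with 0, 1 and 0 reads in CMIH against 11, 13 and 1 in normoxia, and 5F23.72, with 0, 2 and 0 reads in CMIH against 13, 9 and 1 in normoxia. Normoxia pool 8 had the highest CPM in 5 of the 6. The median log2 fold change of the 6 was -3.34 in FI, or -2.91 with the 1 transcript that had no CMIH read set to its bound.

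Neighbours recurred among the 23 FI calls. By contig and gene number, 14 of them fell into 7 neighbouring pairs, and in some pairs the counts were almost the same. Transcripts 31F11.103 and 31F11.97 had 2606 and 2604 reads over the 12 controls and never differed by more than 2 reads in a library. Transcripts 0F9.40 and 0F9.54 had 60 and 58 reads and likewise never differed by more than 2. Such pairs may share reads between near-identical copies, so their values are uncertain and they count as 1 observation at most.

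**Figure D4:**
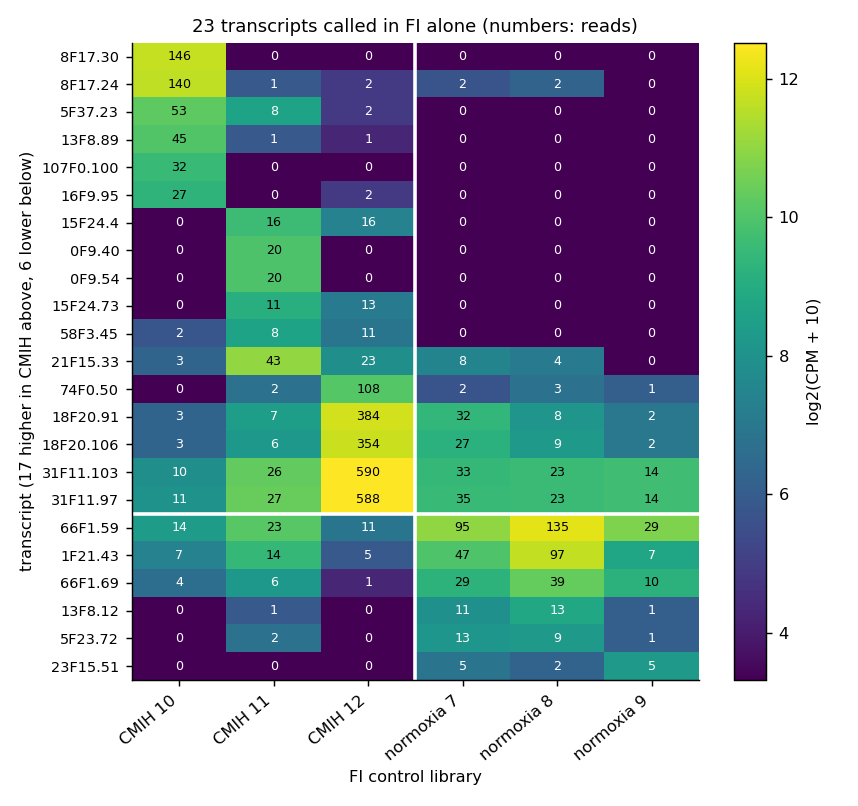
Reads (numbers) and log2(CPM + 10) (colour) of the 23 transcripts called in FI alone, by library, CMIH left of normoxia. Most of the 17 higher transcripts are bright in 1 CMIH library only, as 8F17.30 with 146 reads in pool 10; of the 6 lower ones, 4 are dimmer in every CMIH library than in any normoxia library, while 1F21.43 and 5F23.72 overlap through CMIH pool 11 and normoxia pool 9.

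IL alone, with deeper libraries, gave 0 calls in edgeR (0% of 6050, 139 at an unadjusted p under 0.05, lowest adjusted p 0.652) and 0 in DESeq2 (23 at an unadjusted p under 0.05). The transcript with the lowest p in IL was again 35F4.44. Of the 17 transcripts higher in FI CMIH pools, 7 had the same direction in IL, 4 of them with p under 0.05, and their median log2 fold change in IL was -0.13. Those 6 lower in FI were lower in IL too, none with p under 0.05 in edgeR, with a median of -1.14.

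The test of CMIH by clone called 0 transcripts in edgeR (204 at an unadjusted p under 0.05) and 0 in DESeq2 (132). A call in FI and none in IL is therefore not evidence of a difference between the clones. With so few pools per clone and condition, the test cannot show that there is no difference either. Of the 23 FI calls, 4 had an unadjusted edgeR p under 0.05 for the clone difference. The lowest adjusted p for that difference among the 23 was 1.00. Over the 4046 transcripts with at least 60 reads, the FI and IL log2 fold changes had the same sign in 53.3%, with a Pearson r of 0.17 and a Spearman rho of 0.09 across transcripts. Clone, library preparation and sequencing run coincide in this study, so these cannot be told apart.

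**Figure D5:**
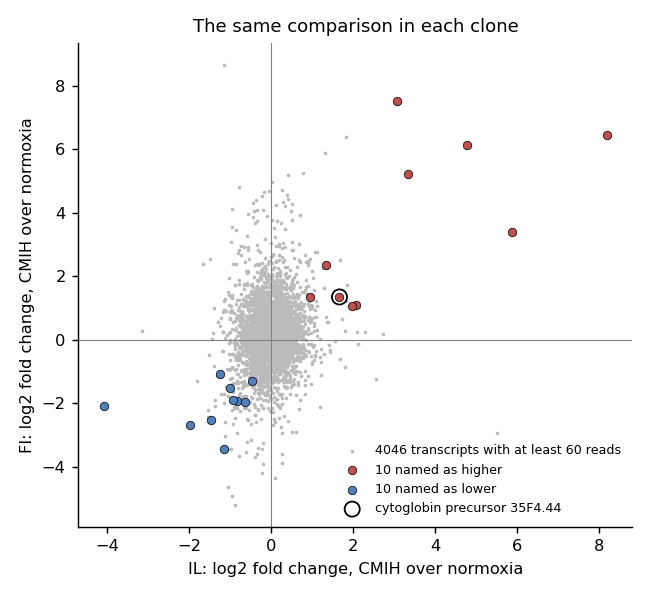
Log2 fold change of CMIH over normoxia in FI (vertical) against IL (horizontal) for the 4046 transcripts with at least 60 reads, with the 10 higher and 10 lower named transcripts in colour and 35F4.44 ringed at 1.66 in IL and 1.35 in FI. The grey cloud is round and wider in FI, with a Pearson r of 0.17.

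Transcripts that respond to oxygen in the other clones were then read in FI and IL controls. In GB and HU, 19 transcripts were higher after ASH at an edgeR adjusted p under 0.05, and 0 were lower (54 lower at an unadjusted p under 0.05 in edgeR, and 2 lower by DESeq2's adjusted p). Of the 19, 14 were higher and 5 lower in FI and IL CMIH controls, with a median log2 fold change of 0.25, or 0.18 without 35F4.44; among all 6050 transcripts 53.7% were higher, with a median of 0.04. Among the 19, 2 had p under 0.05, against 2.35% of all transcripts. These were 35F4.44 and 1F21.30 (log2 fold change 0.93 ± 0.39, edgeR adjusted p = 1.00).

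The transcripts at p under 0.01 for CMIH in GB and HU controls made 2 further lists. Of the 17 that were higher there, 15 were higher in FI and IL CMIH controls, against 53.7% of all transcripts. Their median log2 fold change was 0.58, and 2 were higher at p under 0.05, 1 of them 35F4.44, against 90 of all 6050. Of the 11 that were lower there, 10 were lower in FI and IL, against 2799 of all 6050. Their median was -0.76, and 1 was lower at p under 0.05, against 52 of all 6050. These lists come from pools of other clones. The study's methods describe sampling from the tanks of a single block, so pools of different clones may share a tank, and a shared tank was not tested. Members of the lists are low in reads, with a median of 46 reads over the 12 FI and IL controls for the first list and 118 for the second. None passed an adjusted p of 0.05 in edgeR.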

How the data were processed

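Complementary DNA of whole-body RNA was sequenced on Nanopore MinION by the authors with a PCR-based barcoding kit, 1 run per clone. Per the study's methods, base calling, demultiplexing, trimming and mapping used Guppy 3.6 against the *D. magna* reference transcriptome 3.0, longest isoform per gene; the submitters' processing notes also name SAMtools. The deposited table held, for 6050 transcripts in 48 samples, whole-number read counts, not normalized, and the authors' RPKM, which scale those counts by transcript length and by the total of the table. It listed only transcripts with at least 72 reads over all samples. Reads were not strand-resolved or deduplicated by molecular identifiers in the sources used here.

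Counts were tested with edgeR 4.0.16 (quasi-likelihood F test, TMM, clone as block, no further filter) and Benjamini-Hochberg adjustment over 6050 transcripts at 0.05; standard errors are the log2 fold change divided by the square root of F. DESeq2 1.42.0 (likelihood ratio test) was the alternative. RPKM was used for levels only. Single transcripts were tested on log2(CPM + 1) by exact permutation within clone. The 12 libraries held 16894 to 408355 reads, and the tests were tried on simulated data. Named transcripts were the 10 higher and 10 lower with the lowest p, at least 60 reads and the same sign in both clones, the 4 globin precursors, up to 5 per direction called in 1 clone, and the 5 most like 35F4.44. Members and lists were chosen with earlier results of these data known. Bounds against a group without reads set it to 3 reads over the group and leave out the spread between pools. Alternatives were TMMwsp, library size alone, at least 10 reads per library on average, thinning to the shallowest library (10 draws), the shared dispersion of all 24 controls, each sample left out, a robust fit, and for the globin precursors log2(CPM + 10) and TMM-scaled totals. Named genes such as chymotrypsins were not analysed here, because the identifiers carry no gene names. No value columns were left unused.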

Additional observations from a re-analysis of the deposited data

How the results depend on the processing

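No transcript was called for CMIH in FI and IL controls, and this count was 1 in DESeq2, 1 with at least 10 reads per library on average and 1 in the robust fit, each time 35F4.44 (edgeR adjusted p = 0.0242 with the read minimum and 0.0355 in the robust fit). With single samples left out it was 0 to 1, the 1 being 35F4.44 without FI CMIH pool 11 (edgeR adjusted p = 0.0421), and its adjusted p otherwise ran up to 0.637; it was 1.00 with the shared dispersion. Thinned to the shallowest library the count was 11.5 (median of the draws), and the adjusted p of 35F4.44 0.571. The log2 fold change of 35F4.44 stayed between 1.42 and 1.62. Direction held in every alternative for the 10 higher and the 10 lower transcripts. They were chosen by p in these same 12 libraries with the same sign in both clones, so this was largely set in advance.

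The 23 calls in FI alone were 0 in DESeq2, 0 with at least 10 reads per library, 0 with the shared dispersion, 10 when thinned, 7 in the robust fit, and 7 to 25 with a sample left out. Calls stayed at 0 with a sample left out for IL alone, CMIH by clone and CMIH by habitat, and were 0 to 2 for GB and HU controls. The 2 calls for CMIH after ASH in FI and IL were 5 in DESeq2, 0 with the read minimum and 0 to 8 with a sample left out; the 19 for ASH in GB and HU were 31 in DESeq2 and 16 to 23 with a sample left out.

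Signs turned for the following transcripts, of which 3F39.53 had a log2 fold change near 0 at 1739 reads. The log2 fold change of 0F43.50 was -0.089 in DESeq2, -1.39 with the shared dispersion, -0.011 when thinned and -1.39 to 0.68 with a sample left out; that of 11F0.55 was 0.86 with the shared dispersion and -1.90 to 1.66 with a sample left out. With a sample left out, 3F39.53 ran from -0.19 to 0.59, 8F17.30 from -1.07 to 5.08 and 8F17.24 from -0.74 to 2.92 in both clones, and 8F17.24 from -0.48 to 5.32 in FI. On the log2(CPM + 1) scale, leaving out a sample gave 1.24 to 1.47 for 35F4.44, -1.29 to -0.01 for 0F43.50, -0.52 to 0.73 for 11F0.55 and -0.21 to 1.83 for 3F39.53. The cause of these shifts was not tested. No paired analysis was possible because CMIH controls are numbered 10 to 12 and normoxia controls 7 to 9, so the groups share no number. The study's methods describe 3 replicate library preparations per clone, each holding all treatments, as a usable block; the labels do not say which pools shared one, so that block was not fitted.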
